A study of Saccharomyces cerevisiae with 4 samples.

Results

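The genes described here encode the proteins of the cytosolic ribosome of Saccharomyces cerevisiae, followed through an hour of exposure to b-lapachone. A gene was taken in when its standard name was RPL or RPS with a number and an optional A or B, or was RPP0, RPP1A, RPP1B, RPP2A or RPP2B, after the ORF names of the arrays had been matched to standard names by locus tag. The rule took in 132 of the 6211 ORFs listed, 78 of the large and 54 of the small subunit, the RPP genes counted as large. Of these, 127 had a value on all 4 arrays, RPL8B and RPS1B on 3, and RPL38, RPS16A and RPS10B on none. The 129 genes with at least 3 values, 77 large and 52 small, are the ones compared. A further 5 genes that the names would take in (RPS30A, RPL36B, RPS19A, RPL43B and RPL41B) were not analysed here.

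The cultures were of BY4741, a haploid laboratory strain with the genotype MATa, his3Δ1, leu2Δ0, LYS2, met15Δ0, ura3Δ0, which treated and vehicle cultures shared. They grew in YPD at 28 °C to an absorbance of 0.6 at 660 nm, and 50 ml then received b-lapachone, a naphthoquinone that cells reduce and oxygen reoxidises, at 10 µg/ml in DMSO, or 1% DMSO alone, for 1 h. Each of the 4 arrays hybridised RNA of a treated culture against RNA of a vehicle culture, and these form 1 group of 4 biological replicates. The dyes were swapped between arrays: the treated sample was the Cy3 one on replicates 1 and 3, and the Cy5 one on the remaining pair of arrays. The deposited values are ratios and hold no levels, so the strain could not be checked by the presence of its a-cell markers.

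All values below are log ratios per gene and array, read as log2 and as b-lapachone over vehicle. Neither the base nor the direction is stated with the table, and the opposite direction would exchange higher and lower throughout. A gene is said to have risen or fallen only where limma's test of its mean ratio against 0, adjusted by Benjamini-Hochberg over the 5112 genes tested, gave an adjusted p under 0.05. The arrays held 4819 to 5534 values each, with medians from -0.02 to 0.00. Precision is set by there being 4 of them: a member's mean had a median standard error of 0.11. Replicate 1 had the widest values of the arrays, with an SD of 0.38 over all its ORFs against 0.27 to 0.31 on the others.

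A yeast ribosome joins a small subunit, which reads the mRNA, to a large subunit, which forms the peptide bond and passes the chain through an exit tunnel. Its proteins are made from some of the most strongly transcribed genes of a growing cell, under the activators Rap1, Fhl1, Ifh1 and Sfp1 and the TOR and protein kinase A pathways. In many stresses yeast lowers these mRNAs together, along with those for ribosome assembly. Most of the proteins are encoded by a pair of paralogues, named A and B, left by an ancient genome duplication, and the products of a pair are often identical or nearly so. Where the coding sequences are close, an array probe can bind the mRNA of both copies, so separate values for A and B are uncertain. The probe sequences were not used here, so how far each pair was resolved is unknown.

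The ribosomal protein genes stayed close to a ratio of 1 after b-lapachone, and only RPL31B fell. Their median log2 ratio was 0.04, beside -0.01 over all genes tested, and 80 of the 129 means (62.0%) lay above 0, beside 46.8% of all genes. Means ran from -0.43 (RPL31B) to 0.44 (RPL39), and 118 of 129 (91.5%) lay within 0.2 of 0, beside 71.7% of all genes. RPL31B was 1 call among 129 (0.775%), beside 3.03% of all genes called in either direction and 0.959% called lower. No member rose (0 of 129), beside 2.07% of all genes called higher. The smallest mean called over all genes was 0.40 in size, so smaller changes of members could have gone uncalled. At an unadjusted p under 0.05 there were 5 members (3.88%), beside 18.8% of all genes. These shares are descriptions of the list, with no test of the list itself.

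**Figure D1:**
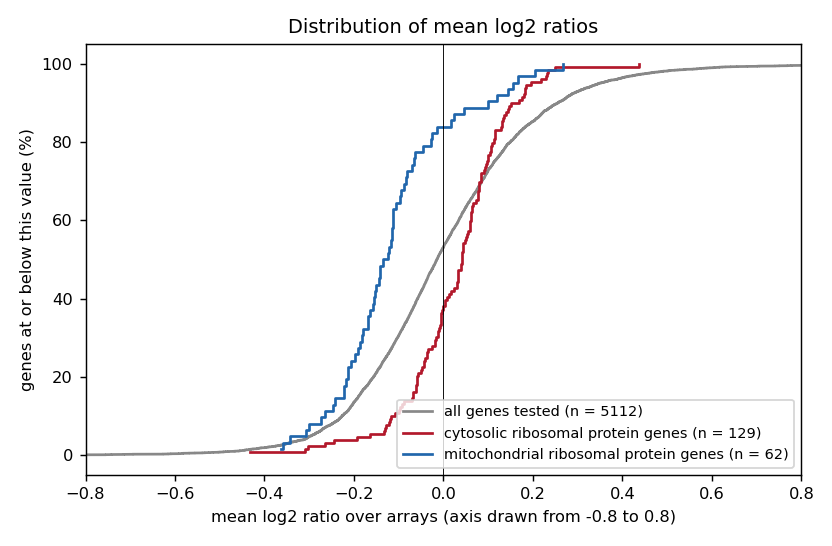
Cumulative share of genes (vertical axis, %) by mean log2 ratio over arrays (horizontal axis) for all 5112 genes tested, the 129 cytosolic and 62 mitochondrial ribosomal protein genes. The cytosolic curve is the steeper one around 0, with 91.5% of its genes within 0.2 of 0. At 0 it lies below the curve for all genes, with 62.0% of its means above 0 beside 46.8%. The mitochondrial curve lies to the left, with a median of -0.13.

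The proteins of the mitochondrial ribosome are encoded by a separate set of nuclear genes. These were taken by name alone (MRPL, MRPS, MRP or RSM with a number), so any with other names were left out. This list lay differently: 10 of 62 means were above 0, beside 46.8% of all genes, and the median was -0.13. None passed (limma gave 0 calls, and 9 before adjustment at 0.05), beside 3.03% of all genes called and 18.8% before adjustment. MRPL8, the largest in size among them, was at -0.98, 0.02, -0.54 and 0.05, a mean of -0.36 ± 0.49 (SD, n = 4) that was -0.16 without replicate 1. Of 59 mitochondrial genes measured on 4 arrays, 18 kept their sign on all of them, 16 below 0, while this held for 14 of 127 cytosolic genes and 26.5% of all genes. By array, the mitochondrial median was -0.17, -0.05, -0.23 and -0.05 on replicates 1 to 4. It was thus lower on replicates 1 and 3, where treated RNA was in Cy3, as was MRPL8. With treated RNA in Cy5 set against Cy3, 44 of the 62 coefficients were above 0, beside 2692 of 5112 over all genes. Neither the part of the dye nor the difference between the mitochondrial and cytosolic lists was tested.

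The members' values were small, and fewer of them kept their sign over the arrays than among all genes. On all 4 arrays 14 of 127 members kept their sign, 11 above 0 and 3 below, beside 26.5% of all genes measured on 4 arrays (12.8% above and 13.7% below). Some of the 14 repeated closely, such as RPS0B, of the small subunit, at 0.26, 0.18, 0.17 and 0.18, named after its values were seen. Over the members, replicates 1 and 2 correlated at a Pearson's r of -0.516 (Spearman's rho -0.411, 127 genes), whereas over all genes tested the same arrays correlated at 0.110. Replicates 1 and 3, which share the dye orientation, correlated at 0.279 over members and 0.486 over all genes. Replicates 2 and 4, which share the other orientation, correlated at -0.010 over members and 0.395 over all genes. The remaining pairs, of opposite orientation, correlated over members at -0.162 (replicates 1 and 4), 0.098 (2 and 3) and 0.119 (3 and 4), beside 0.251, 0.302 and 0.444 over all genes. Without RPL41A and RPL39, the members with the highest values on replicate 1, the correlation of replicates 1 and 2 was -0.361 (rho -0.383, 125 genes). Genes on an array share its hybridisation and are not independent replicates, so these correlations are descriptions.

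**Figure D2:**
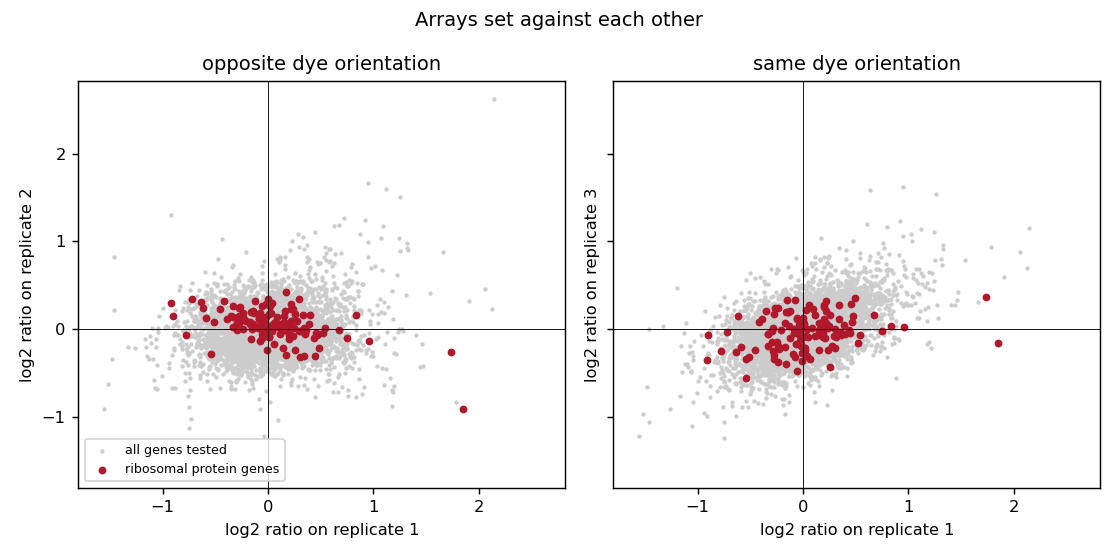
Log2 ratios of each gene on replicate 1 (horizontal axes) against replicate 2 (left, opposite dye orientation) and replicate 3 (right, same orientation), with all genes tested in grey and ribosomal protein genes in red. Red points slope downwards on the left (r = -0.516) and upwards on the right (r = 0.279), and RPL41A and RPL39 stand at the far right of both panels.

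Most of the large single values came from replicate 1. There, 18 of 128 members (14.1%) had a value of at least 0.5 in size, 8 above 0 and 10 below, beside 16.4% of all genes. On replicates 2, 3 and 4 there was 1 such member each (RPL41A, RPL31B and RPL36A), or 0.781%, 0.775% and 0.775%, beside 5.17%, 7.21% and 5.13% of all genes. The SD over members was 0.40 on replicate 1 and 0.18, 0.19 and 0.17 on replicates 2 to 4, beside 0.38, 0.26, 0.29 and 0.27 over all genes tested. The SD on replicate 1 includes RPL41A and RPL39, and the interquartile range there was 0.39 over members beside 0.47 over all genes. On replicates 2, 3 and 4 it was 0.20, 0.28 and 0.25 beside 0.30, 0.36 and 0.33, so by this measure the members were the narrower set on all 4 arrays. On replicates 2 to 4 alone, 39 of 128 members (30.5%) kept their sign, beside 39.6% of all genes.

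RPL39 and RPL41A showed this most. RPL39 encodes a small protein that lines the exit tunnel, and its ratios were 1.74, -0.26, 0.37 and -0.11 on replicates 1 to 4, a mean of 0.44 ± 0.91 that did not pass (limma, adjusted p = 0.358). RPL41A encodes a very short peptide that bridges the subunits, and its ratios were 1.85, -0.91, -0.16 and -0.11, with a mean of 0.17 ± 1.18 (limma, adjusted p = 0.805) that turned below 0 with array weights. Both genes were far above 0 on replicate 1 alone, and without it their means were 0.00 and -0.39. RPL37A, at 0.96, -0.13, 0.03 and 0.15, had a mean of 0.25 with all arrays and 0.01 without replicate 1. RPS20, of the head of the small subunit, and RPL30 went the same way, from means of 0.22 and 0.18 to 0.01 each, and were named after their values were seen.

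At the other end, after RPL31B, were RPS28A, RPL17A, RPL22A and RPS18B among members on 4 arrays, and RPS1B, with -0.54, -0.33 and -0.04 on replicates 1, 3 and 4. RPS28A, whose product lies near the mRNA exit of the small subunit, was at -0.78, -0.06, -0.24 and -0.15 (mean -0.31 ± 0.32; limma, adjusted p = 0.206). It was below 0 on every array, and its mean was -0.15 without replicate 1. RPL17A, of the exit tunnel, was at -0.90, 0.16, -0.06 and -0.25 (mean -0.27 ± 0.46), and -0.05 without replicate 1. RPS18B, of the small-subunit head, had a mean of -0.19 ± 0.30, with -0.59 on replicate 1 and -0.06 over the others.

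The dye was examined directly, with a coefficient for treated RNA in Cy5 against Cy3. Past the threshold, limma gave a dye effect for 0 of 129 members, beside 0.0391% of all genes. Before adjustment, 11 members (8.53%) had a p under 0.05, beside 9.76% of all genes. The members' median coefficient was 0.07, beside 0.02 over all genes, and 80 of the 129 coefficients were above 0. The largest were those of RPL41A (-1.35) and RPL39 (-1.24), with RPL22A (0.77), RPS31 (-0.64) and RPL26A (0.61) next. RPL41A, RPL39 and RPL22A were at 1.85, 1.74 and -0.92 on replicate 1, their largest values in size. On replicates 3 and 4, of opposite orientation, RPL41A was at -0.16 and -0.11, RPL39 at 0.37 and -0.11 and RPL22A at -0.35 and -0.02. RPS31, a fusion of ubiquitin to a small-subunit protein, followed the dye on each array, with 0.49 and 0.36 where treated RNA was in Cy3 against -0.21 and -0.24 where it was in Cy5 (limma, adjusted p of the dye effect = 0.358). RPL26A, of the rim of the tunnel exit, was at -0.72 and -0.03 with treated RNA in Cy3, and at 0.35 and 0.13 with it in Cy5. The part of the dye in the negative correlation of replicates 1 and 2 was not tested.

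The large and the small subunit lay close together. The 77 large-subunit genes had a median of 0.04 (50 means above 0) and the 52 small-subunit genes 0.03 (30 above 0). On single arrays, the large-subunit median was 0.01, 0.06, -0.03 and 0.03 on replicates 1 to 4, and the small-subunit median was 0.00, 0.07, -0.04 and 0.07. Large minus small was thus 0.01, 0.00, 0.01 and -0.04 (mean -0.01 ± 0.02, SD, n = 4), above 0 on replicates 1 and 3 and below 0 on the other arrays. The difference between the medians of gene means was 0.01, and its sign turned with scaled or quantile-normalized arrays. The spread of gene means was the same in both subunits (SD 0.12 each).

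**Figure D3:**
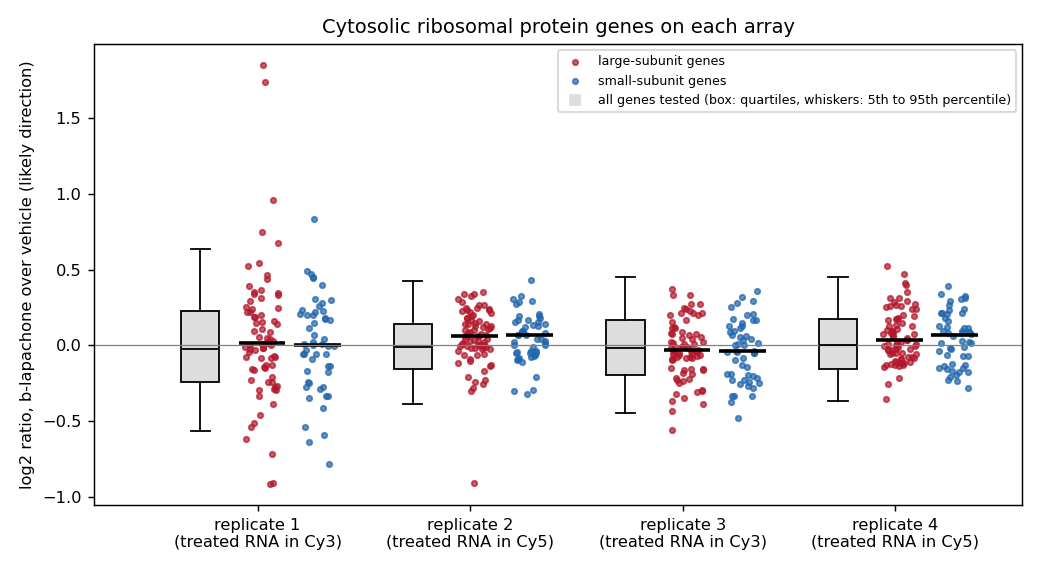
Log2 ratio (vertical axis) of each large-subunit gene (red) and small-subunit gene (blue) on each array, with black bars at their medians, beside boxes for all genes tested (box at the quartiles with the median; whiskers from percentile 5 to percentile 95). The medians of the subunits differ by at most 0.04 on any array, and the points spread most on replicate 1 (SD 0.40 over members).

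Within the large subunit, the stalk recruits elongation factors to the ribosome and consists of RPP0, to which the acidic proteins of RPP1A, RPP1B, RPP2A and RPP2B bind, with RPL12 at its base. Of the 7 stalk genes limma called 0, with or without adjustment, beside 3.03% of all genes called and 18.8% before adjustment, and 3 had means above 0, beside 46.8%. RPP0 was at -0.24, 0.18, 0.24 and 0.13 on replicates 1 to 4 (mean 0.08 ± 0.22). RPP1B was at -0.62 on replicate 1 and between 0.15 and 0.24 on the others (mean -0.01 ± 0.41), a mean that was above 0 with scaled, quantile-normalized or weighted arrays. RPP2B had the smallest spread of any member measured on 4 arrays, with ratios of -0.03, 0.04, -0.01 and -0.03 (mean -0.01 ± 0.03), its sign turning with centred arrays. RPP1A was at -0.12 ± 0.13 and RPP2A at 0.03 ± 0.22, and RPP1A was below 0 on all 4 arrays.

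RPL5 and RPL11, which enter the ribosome as a complex with the smallest of its large-subunit RNAs, were close to 0. RPL5 had a mean of 0.08 ± 0.13, RPL11A of -0.02 ± 0.24 and RPL11B of 0.11 ± 0.19. The other ubiquitin fusions, RPL40A and RPL40B, which with RPS31 supply ubiquitin in growing cells, had means of 0.10 ± 0.26 and 0.18 ± 0.39. Each was highest on replicate 1, at 0.47 and 0.75, and their means were -0.03 and -0.01 without it. At the mRNA entry of the small subunit (RPS2, RPS3, RPS9A, RPS9B and RPS30B) 4 of 5 means were above 0, and limma called 0 with or without adjustment. On the rim of the tunnel exit 7 of 12 means were above 0, the median was 0.03 and 1 gene, RPL31B, was called. Beside both sets stand 46.8% of all genes above 0, 3.03% called and 18.8% before adjustment.

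The 18 members without an A or B copy had a median of 0.09, and 14 of their means were above 0, against a median of 0.03 and 66 of 111 for duplicated members. By array, the medians of the unduplicated genes were 0.18, 0.09, 0.06 and -0.08 on replicates 1 to 4 and those of duplicated members 0.00, 0.06, -0.04 and 0.05. The order of the sets was therefore turned on replicate 4, and the difference was not tested.

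RPL31 gave the one pair in which a copy was called. It encodes a protein at the rim of the tunnel exit, where the chaperone complex with Zuo1 docks. RPL31B (YLR406C) was at -0.54, -0.28, -0.56 and -0.35 on replicates 1 to 4, below 0 on each, with a mean of -0.43 ± 0.14 (SD, n = 4), or 1.35-fold lower (limma, adjusted p = 0.0429). Its call was lost without replicate 1 (adjusted p = 0.0638), without replicate 3 (0.290) and without replicate 4 (0.120), while the mean stayed between -0.48 and -0.39. The call was also lost with genes on at least 2 arrays and with each gene's own variance. RPL31A (YDL075W) was at 0.03, 0.00, 0.22 and 0.47, above 0 on each array, with a mean of 0.18 ± 0.22 that did not pass (limma, adjusted p = 0.394). A minus B was 0.57, 0.28, 0.77 and 0.83, a mean difference of 0.61 ± 0.25 and the largest in size among the 50 pairs measured on 4 arrays. An exact two-sided sign-flip permutation test gave this pair the smallest p that 4 arrays allow, which is above 0.05. RPL1, RPL13, RPL17 and RPS21 had the same p, so the test does not set RPL31 apart from them.

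**Figure D4:**
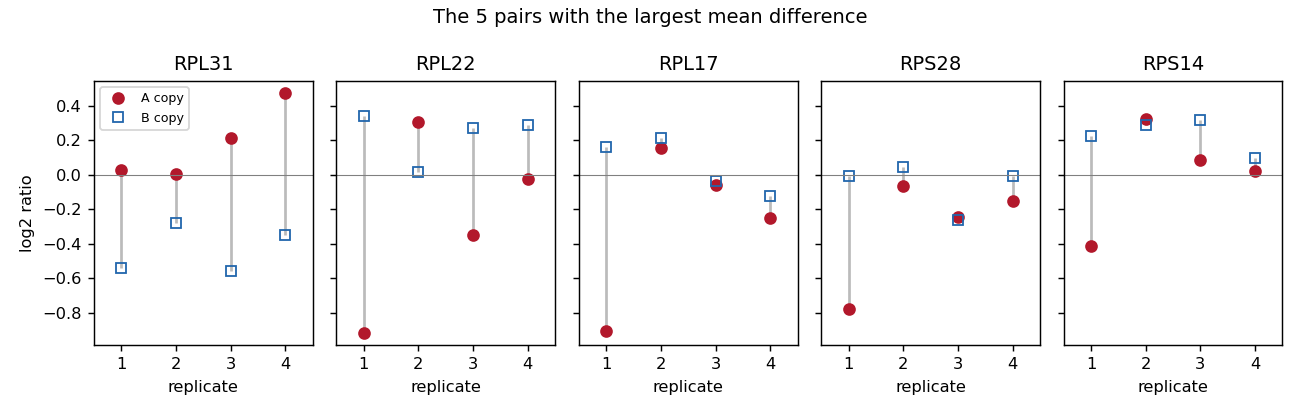
Log2 ratio (vertical axes) of the A copy (filled red) and the B copy (open blue) on replicates 1 to 4 for the 5 pairs with the largest mean difference, grey lines joining the copies of an array. In RPL31 the B copy lies below the A copy on every array; in RPL17, RPS28 and RPS14 the gap is widest on replicate 1.

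In the next 4 pairs the A copy had the lower mean, and the gap was widest on replicate 1. RPL22 encodes a non-essential protein of the large-subunit surface; RPL22A was at -0.92, 0.30, -0.35 and -0.02, and RPL22B at 0.34, 0.02, 0.27 and 0.29. A minus B for RPL22 was -0.47 ± 0.64, below 0 on 3 of 4 arrays and above 0 on replicate 2 (exact sign-flip p = 0.250). RPL17A minus RPL17B was -1.07 on replicate 1 and between -0.13 and -0.02 on the others. RPS28A minus RPS28B was -0.77 on replicate 1 and between -0.14 and 0.02 on the others, with a mean of -0.25 ± 0.36. RPS14, of the platform of the small subunit, had RPS14A at 0.00 ± 0.31 and RPS14B at 0.23 ± 0.10, a difference of -0.64 on replicate 1 and of -0.23 to 0.04 elsewhere.

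Over the pairs as a whole, A minus B lay near 0. Both copies were measured on at least 3 arrays in 52 of 59 pairs, and the A copy had the higher mean in 22 and the B copy in 30. The median of A minus B was -0.02, and by array it was -0.03, 0.00, -0.02 and -0.05 on replicates 1 to 4, with A higher in 24, 27, 25 and 18 of the pairs. The median size of the mean difference was 0.08 over the 50 pairs on 4 arrays, while the median SD of a pair's difference over arrays was 0.23. The difference was larger than its own SD in 5 of the 50 pairs. The direction of the difference was the same on all 4 arrays in 5 of the 50 pairs. A was higher in RPL31 and RPL13, and B in RPL1, RPL17 and RPS21. RPL13, RPL1 and RPS21 were named after their values were seen. The share of pairs expected to do so by sign alone was not computed, so this count does not set these pairs apart. The smallest mean differences on 4 arrays were in RPS23, of the decoding centre, RPL27 and RPS29, with 0.00 ± 0.26, 0.01 ± 0.28 and 0.01 ± 0.23.

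**Figure D5:**
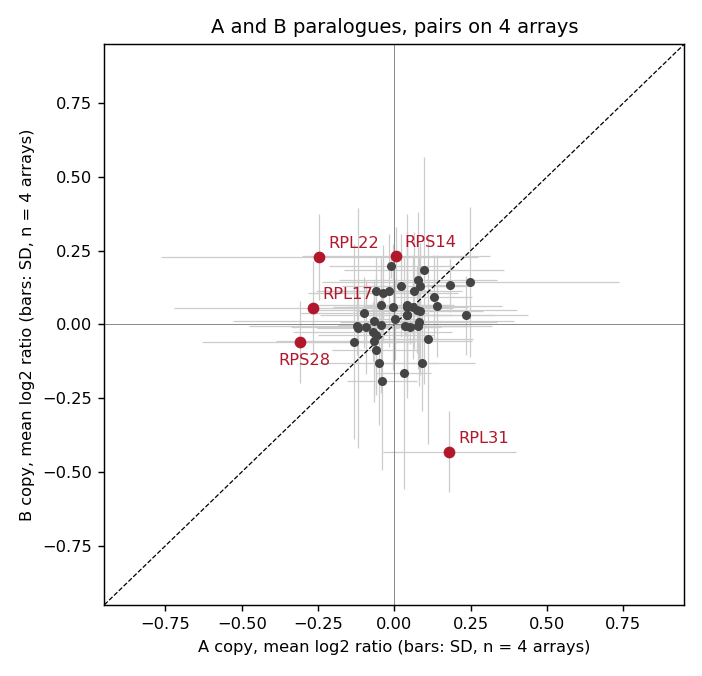
Mean log2 ratio of the A copy (horizontal axis) against the B copy (vertical axis) for the 50 pairs measured on 4 arrays, bars giving the SD over arrays and the dashed line equal ratios. Most pairs lie near the origin with bars that cross the line, and RPL31 stands apart below it, with A at 0.18 and B at -0.43.

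The means of the copies of a pair correlated weakly over pairs. The SD between member means was 0.12, beside a median standard error of 0.11 for a member's mean. With so much of the spread within error, these correlations cannot tell whether the copies of a pair changed together. The mean of the A copy correlated with that of the B copy at r = 0.0229 over the 50 pairs (rho 0.253), and at 0.189 without RPL31. By array, r was 0.0986, 0.376, 0.158 and -0.0857 on replicates 1 to 4. The median size of the difference in mean was 0.08 within pairs and 0.10 over the 7951 other combinations of members measured on 4 arrays. Averaged over arrays, the difference within an array was 0.19 within pairs and 0.23 over other combinations. In 34 of the 52 pairs both means had the same sign, where 62.0% of all member means were above 0. The share of other combinations with the same sign was not counted.

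Some members hold down their own expression when their protein is in excess, and 5 of these were looked at after their values were seen. RPL30, RPL22B, RPS14B and RPS9A are controlled in this way at splicing, and RPS28B through decay of its mRNA. RPS14B was at 0.22, 0.29, 0.32 and 0.10 and RPL22B, given above, was likewise above 0 on all 4 arrays. This held for 12.8% of all genes measured on 4 arrays. RPS9A was at 0.45, -0.04, 0.29 and 0.23 (mean 0.23 ± 0.20). RPS14B, RPL22B and RPS9A had 3 of the 5 highest means among members on 4 arrays. The genes were picked with these values known, so that rank follows from the choice and shows no shared rise. None of the 5 passed, beside 3.03% of all genes called (limma, adjusted p = 0.231 for RPS14B, 0.251 for RPL22B, 0.266 for RPS9A, 0.492 for RPL30 and 0.793 for RPS28B). RPS28B, at -0.06 ± 0.14, and RPL30, at 0.18 ± 0.35, did not lie above 0 on every array.

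Ribosomal protein genes that lie next to each other on a chromosome differed in their means by 0.03 to 0.41. By the order of genes in the R64 table there were 8 such neighbouring pairs among the members compared. RPS14B, RPS22A and RPL39 follow each other, with means of 0.23, 0.03 and 0.44. The difference of 0.41 was that of RPS22A and RPL39, whose means were 0.04 and 0.00 without replicate 1. The next largest difference was 0.21 in size, beside a median of 0.10 over combinations of members that were not paralogues. RPL13A lies between RPS16B and RPP1A, with means of 0.09, -0.04 and -0.12.

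Among the regulators of these genes, IFH1 rose. Its protein is the coactivator that Fhl1 recruits to ribosomal protein promoters, and its ratios were 0.42, 0.22, 0.61 and 0.64, above 0 on all 4 arrays (mean 0.47 ± 0.19; limma, adjusted p = 0.0365). The call was lost without replicate 3 (adjusted p = 0.290) and without replicate 4 (0.170). It was also lost with each gene's own variance, under which no gene was called. FHL1 itself was at -0.17 ± 0.17, RAP1 at -0.06 ± 0.17 and HMO1, a high-mobility group protein of these promoters, at -0.10 ± 0.23, and none passed. SFP1 was at 0.88 on replicate 1 and at 0.22, 0.04 and -0.11 on the others, and the kinase gene SCH9 at 0.51 on replicate 1 with a mean of 0.07 ± 0.30. Of 13 genes tested that control this transcription, signalling kinases such as TOR1 and YAK1 included, 1 rose and none fell. At an unadjusted p under 0.05 by limma there were 5, and the median was 0.07. Beside these counts stand 2.07% of all genes called higher, 0.959% called lower and 18.8% before adjustment.

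Few of the factors that work on or around the ribosome were called. Counts for the lists that follow stand beside 3.03% of all genes called and 18.8% before adjustment. The median size of a mean was 0.15 for chaperones and for elongation factors, 0.13 for initiation factors and 0.08 for other ribosome-associated genes. It was 0.12 over all genes and 0.07 over ribosomal protein genes. In the same order of lists, 6 of 8, 9 of 11, 14 of 26 and 4 of 9 means were above 0, beside 46.8% of all genes. Of 8 dedicated chaperones of ribosomal proteins limma called 0 (2 before adjustment), with a median of 0.10; SYO1, which carries Rpl5 and Rpl11 into the nucleus, was largest at 0.29 ± 0.20. Of 11 elongation factor genes none was called (0 by limma, 1 unadjusted) and the median was 0.13, although HYP2, for the factor eIF5A, was largest in size at -0.22 ± 0.09. Of 26 initiation factor genes none was called (0 by limma, 2 unadjusted) and the median was 0.02. The largest was GCD2, of the exchange factor eIF2B, with 1.12, -0.45, 0.65 and 0.48 (mean 0.45 ± 0.66; limma, adjusted p = 0.226). Its mean was 0.23 without replicate 1 (adjusted p = 0.483) and 0.75 without replicate 2, where it passed (adjusted p = 0.0159). Of 9 other ribosome-associated genes tested 1 fell (also 1 before adjustment): BTT1, a beta subunit of the nascent-chain complex at the tunnel exit, with -0.79, -0.58, -0.26 and -0.46 (mean -0.52 ± 0.22; limma, adjusted p = 0.0263). Its call was lost without replicate 2, 3 or 4 (adjusted p = 0.0576, 0.0980 and 0.0920), and with each gene's own variance.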

How the data were processed

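RNA from treated and vehicle cultures was labelled indirectly with Cy5 and Cy3, per the labels' protocols, and compared on 4 two-channel arrays. For each ORF the authors deposited a single value per array, read here as a log2 ratio; the sources used here do not give its base, direction, background correction or normalization. The columns are centred near 0 and no further normalization was applied. Of 6211 ORFs, 5638 matched a locus tag of the R64 gene table exactly; no build is named for the arrays, so no coordinates are given. The 5112 genes with values on at least 3 arrays (4574 on 4, 538 on 3) were fitted with limma 3.58.1 in R 4.3.3 (lmFit, eBayes, mean against 0, two-sided, Benjamini-Hochberg, threshold 0.05), which was also tested on simulated data. A second fit added a dye coefficient. Python 3.11.15 gave the summaries, SDs over arrays and exact sign-flip permutation tests of A minus B. Spot signals and backgrounds were not used, so dim and saturated spots stayed in.

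The members and lists were chosen with earlier results of these data known. The text names called members, the 5 highest and 5 lowest means, the pairs with the 5 largest and 3 smallest differences, the 5 largest dye coefficients, both extremes of SD, stalk and small functional groups, RPL31, 6 regulators, and the leading gene of each other list. The alternatives were adding the dye coefficient, centring, scaling or quantile normalization of arrays, other minimums of arrays, a robust prior, array weights, each gene's own variance, and leaving out each replicate.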

Additional observations from a re-analysis of the deposited data

Results flagged for a closer look

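A gap of a single array from the other 3, past Dixon's critical value relative to the range, was found in 7 of 127 members measured on 4 arrays, 4 of them on replicate 1; chance flags about 1 in 20. Among the genes and pairs named, RPP1B stood at -0.62 on replicate 1 against 0.15 to 0.24 on the others, and RPS29B, of the small-subunit head, at -0.35 on replicate 1 against 0.12 to 0.21. RPS28B stood at -0.26 on replicate 3 against -0.01 to 0.04. RPL17A minus RPL17B was -1.07 on replicate 1 against -0.13 to -0.02.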

How the results depend on the processing

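RPL31B was called with a dye coefficient, centred, scaled, quantile-normalized or weighted arrays, a robust prior and values on 4 arrays. No ribosomal protein gene was called with genes on at least 2 arrays (0, with 5 at an unadjusted p under 0.05) or with each gene's own variance (0, with 4 unadjusted), and leaving out replicates gave 0 to 1. Over all genes the count of 155 became 263 with array weights, 0 with own variance (690 unadjusted) and 27 to 179 when replicates were left out, with 27 without replicate 3 and 67 without replicate 4. The dye effect called 0 members under each of its 3 alternatives. Leaving out replicates moved the members' median between 0.0174 and 0.0542, large minus small between 0.00910 (without replicate 1) and 0.0453 (without replicate 4; 0.0383 and 0.0368 without replicates 2 and 3), and A minus B between -0.0435 and 4.68e-05 (without replicates 4 and 3). Large minus small was -0.00310 with scaled and -0.00217 with quantile-normalized arrays. Of 44 named genes, 17 changed sign under some setting, none with a mean above 0.183 in size. Means that changed sign with all replicates kept were RPL26A at 0.0167 with array weights, RPL41A at -0.0538 with array weights, RPP1B at 0.0370 with scaled arrays, RPP1B at 0.0361 with quantile-normalized arrays, RPP1B at 0.0795 with array weights and RPP2B at 0.00331 with centred arrays. Without single replicates, means ran from -0.10 to 0.14 (RPS14A), -0.0926 to 0.0100 (RPS28B), -0.0785 to 0.15 (RPL27A), -0.0136 to 0.0898 (RPS29A), -0.00971 to 0.13 (RPS23B), -0.0250 to 0.16 (RPS29B), -0.21 to 0.15 (RPL26A), -0.0290 to 0.21 (RPS31), -0.39 to 0.53 (RPL41A), -0.0962 to 0.19 (RPP1B), -0.0605 to 0.12 (RPP2A), -0.0229 to 0.00209 (RPP2B), -0.11 to 0.0783 (RPL11A), -0.0277 to 0.17 (RPL40A), -0.00561 to 0.28 (RPL40B), -0.11 to 0.0173 (RAP1) and -0.0688 to 0.16 (SCH9); the cause was not tested. No paired analysis was possible because the arrays form a single group in which each array already pairs a treated with a vehicle culture.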
